A study of Mus musculus with 5 samples.

Results

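The genes described here make up the glutathione, peroxiredoxin and thioredoxin antioxidant system of sorted mouse haematopoietic stem and progenitor cells (HSPCs). They were matched by symbol: superoxide dismutases, catalase, glutathione peroxidases, peroxiredoxins, thioredoxins with their reductases, glutaredoxins, glutathione synthesis enzymes, glutathione transferases, Nqo1, Hmox1, and the regulators Nfe2l2 and Keap1. The set was proposed with earlier results of these data known, so shares of members set beside those of all genes are descriptions only. The rule matched 45 of the 11352 genes listed, and matched 61 protein-coding genes of the mouse annotation, of which 16, Hmox1 among them, were not analysed here. RNA-seq was compared between 3 libraries from Cux1-low;NrasG12D mice, which combine a Cux1 knockdown with the oncogenic NrasG12D allele, and 2 libraries from Cux1-low mice, which carry the knockdown alone. All mice had received pI:C, an interferon-inducing double-stranded RNA, together with doxycycline over 4 weeks, so the knockdown and both treatments were shared by the groups. The sorted cells were KIT-positive and SCA1-positive, and negative for lineage markers and CD135. Strain, age, sex, the driver of the Nras allele, the hairpin and any pooling of animals are not stated in the labels, and p-values measure only the spread between these libraries, part of which may be technical.

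Superoxide made by mitochondria and by the phagocyte oxidase is turned into hydrogen peroxide by superoxide dismutases, and the peroxide is then removed by catalase, by glutathione peroxidases and by peroxiredoxins. Glutathione peroxidases draw their electrons from glutathione and most peroxiredoxins draw theirs from thioredoxin, and both carriers are reduced again at the expense of NADPH by glutathione reductase and thioredoxin reductases. The transcription factor NRF2, encoded by Nfe2l2, induces many of these genes and is marked for degradation by KEAP1. Haematopoietic stem cells are known for low levels of reactive oxygen species, and red cell precursors for high levels of several peroxide-removing enzymes.

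Values are the deposited CPM, called normalized CPM here, which are reads scaled to a library size corrected for composition. Reads over the listed genes numbered 16489711 to 20262498 per library, and the lowest value of any member rested on 31 reads. In the Cux1-low;NrasG12D libraries, from here on the NrasG12D libraries, the level of Cux1 was 311, 279 and 307 normalized CPM, against 306 and 281 in Cux1-low libraries, and these values check neither the knockdown, which both groups carry, nor the Nras allele. NrasG12D library 3 stood apart from NrasG12D libraries 1 and 2, with a position of -4.16 on the first principal component, against 29.1 and 38.0 for those and -32.8 and -30.1 for the Cux1-low libraries. The sort marker Kit was at 477, 569 and 816 normalized CPM in NrasG12D libraries 1 to 3 and at 1359 and 1373 in the Cux1-low libraries. Ly6a, which encodes SCA1, was at 24.2, 14.2 and 37.7 against 44.7 and 48.7. Flt3, which encodes CD135, was at 196, 165 and 230 against 326 and 388, although the sort was for CD135-negative cells. All of these were lower in every NrasG12D library. All 14 HSPC markers looked up were listed, 12 with negative log2 fold changes (median -1.07) and 2, Slamf1 and Tal1, with positive ones. In 10 of the 14 the groups did not overlap on the lower side, against 27.0% of all genes. Tal1 was higher in every NrasG12D library, and 3 overlapped. The summed level of these markers was 2116, 1786 and 3390 normalized CPM in NrasG12D libraries 1 to 3 and 4485 and 4610 in the Cux1-low libraries. In bulk RNA, fewer cells of a type and less RNA per cell cannot be told apart.

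In 21 of the 45 antioxidant genes every NrasG12D library lay above both Cux1-low libraries, by 1.12-fold to 2.20-fold on average, and these included 5 peroxiredoxins, Gpx1, Txn1 and both superoxide dismutases. The theta class and 3 of 4 mu class glutathione transferases were on the lower side, and no member passed the test over all genes. A member was called when limma, fitted on log2(normalized CPM + 1) over all 11352 genes, gave a Benjamini-Hochberg adjusted p under 0.05. By this rule 0 of 45 members were called higher and 0 lower, where the background was 0.255% of all genes higher and 0.872% lower. At an unadjusted p under 0.05, 18 members were higher (40.0%, against 14.8% of all genes) and 5 were lower (11.1%, against 16.5%). The smallest adjusted p was 0.0616, for Txn1. In the authors' deposited table, whose test is described there by a likelihood ratio, 10 members were higher and 3 lower at an adjusted p under 0.05, which is 22.2% and 6.67% of the members, against 6.97% and 9.14% of all genes. The median log2 fold change was 0.25 over the 45 members and 0.00 over all genes. Of the 45 log2 fold changes 30 were positive (66.7%, against 49.7% of all genes). Beside the 21 members without overlap on the higher side, there were 10 on the lower side, and in 14 the groups overlapped. The shares of all genes with such separation were 26.5% higher and 27.0% lower. Listed genes all exceeded 1 normalized CPM in 3 or more libraries, so a gene above 1 in the Cux1-low libraries alone could not be listed, and counts of higher and lower genes are not alike in this respect.

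**Figure D1:**
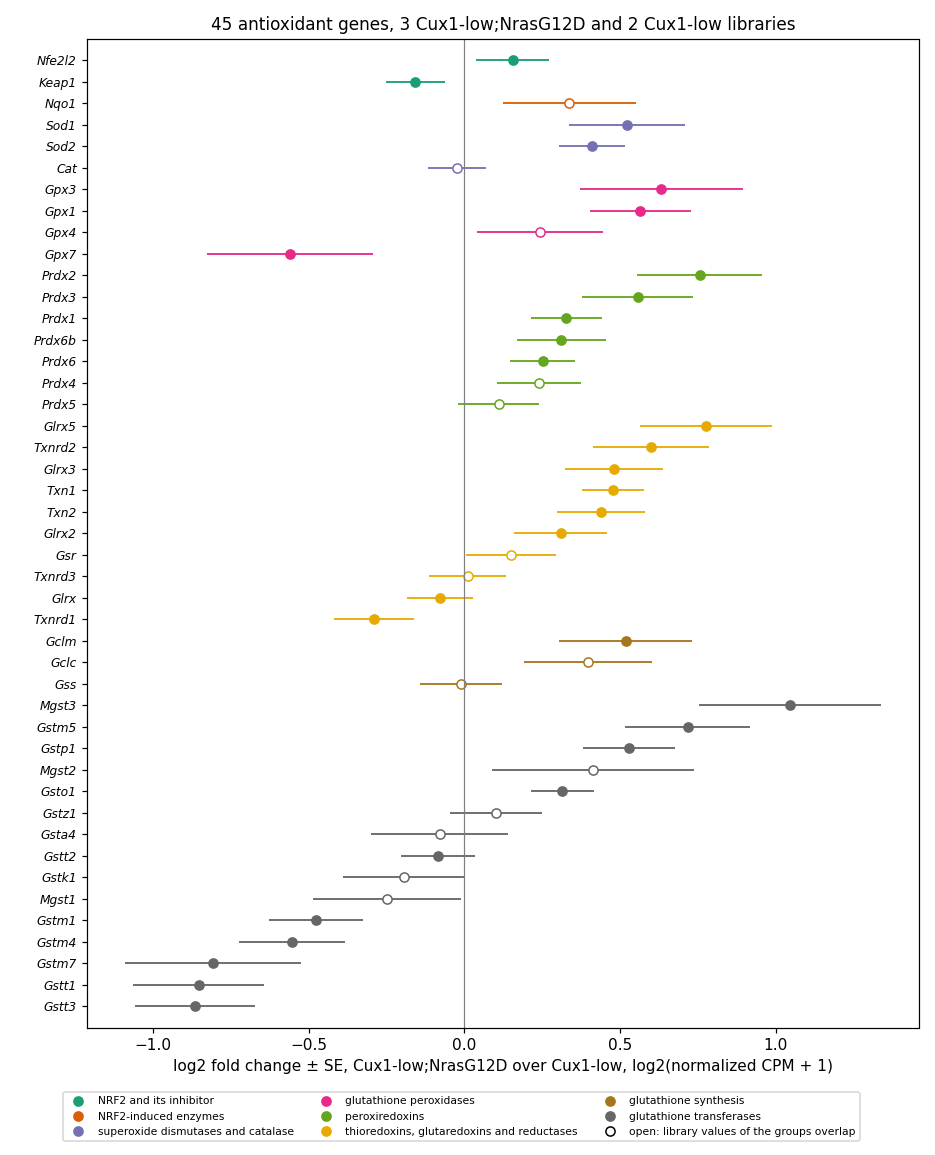
Log2 fold change with its SE for each of the 45 antioxidant genes, Cux1-low;NrasG12D (n = 3) over Cux1-low (n = 2), on the log2(normalized CPM + 1) scale, coloured by role, with open circles where library values overlap. The peroxiredoxins all lie to the right of 0, while the glutathione transferases run from -0.86 for Gstt3 to 1.04 for Mgst3.

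The count of calls rested on NrasG12D library 3. With that library left out, 21 members rose and 7 fell over all genes, where 18.0% of all genes rose and 19.4% fell, and 46.7% and 15.6% of the members did. All 13 members called in the authors' deposited table were among these 28. With each of the other 4 libraries left out in turn, 0 members were called. NrasG12D library 3 lay between the mean of the Cux1-low libraries and that of NrasG12D libraries 1 and 2 for 28 of the 31 members whose groups did not overlap. Its median relative position was 0.407, where 0 is the Cux1-low mean and 1 is the mean of NrasG12D libraries 1 and 2. Without overlap this position must lie above 0, so the count and the median are raised by the choice of members. Among overlapping members it fell on both sides of 0, as with Gsr (-0.31) and Prdx4 (0.16). No such share was computed over all genes.

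**Figure D2:**
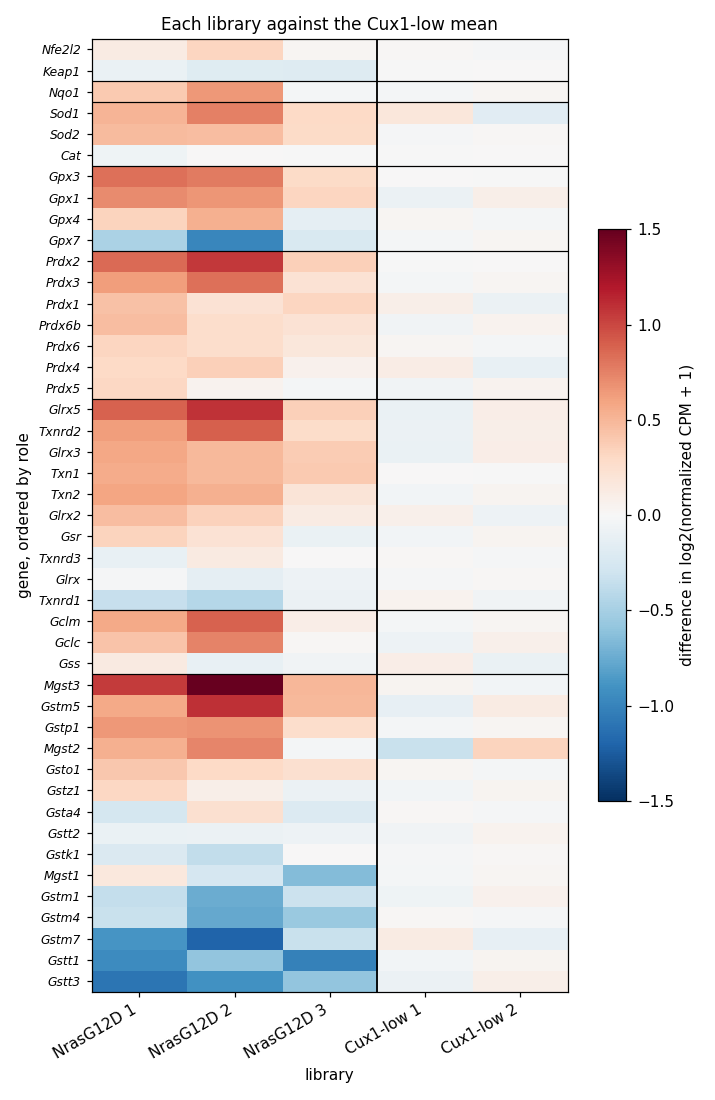
Difference of each library from the Cux1-low mean, in log2(normalized CPM + 1), for the 45 genes in rows ordered by role, with the 3 NrasG12D libraries (Cux1-low;NrasG12D) left of the 2 Cux1-low libraries. The red rows are paler in NrasG12D library 3 than in NrasG12D libraries 1 and 2 for most genes. The blue rows at the bottom are the mu class genes Gstm1, Gstm4 and Gstm7 and the theta class genes Gstt1 and Gstt3, while Gstm5 is a red row.

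The regulators at the head of the system differed little. Nfe2l2 (mm10 chromosome 2, 75675513 to 75704641, minus strand) was at 196, 225 and 184 normalized CPM in the NrasG12D libraries and at 183 and 178 in the Cux1-low libraries. NrasG12D library 3 lay next to Cux1-low library 1, with a log2 fold change for the groups of 0.16 (SE 0.12, limma adjusted p = 0.385). Keap1, whose product holds NRF2 low, was at 159, 150 and 149 in the NrasG12D libraries and at 169 and 171 in the Cux1-low libraries. The groups did not overlap, and the group difference was -0.16 in log2 (SE 0.10, limma adjusted p = 0.290). Nqo1, a quinone reductase that serves as a standard NRF2 target, was at 33.4, 40.2 and 24.6 in the NrasG12D libraries and at 24.7 and 25.8 in the Cux1-low libraries. NrasG12D library 3 was at the Cux1-low level, and the group difference was 0.34 in log2 (SE 0.21, limma adjusted p = 0.306).

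NRF2 binds with small MAF proteins to antioxidant response elements, for which the letters TGACNNNGC were searched on both strands in the 250 bases before each RefSeq start (GRCm38.p6, the mm10 build). Promoters of 39 of the 45 members were found, 54 in all, and 8 of these (14.8%) held the letters, against 10.2% of the 32851 promoters of all genes. The 8 belonged to Gclm, Gstm5, Gstm7, Mgst1, Nfe2l2, Prdx1, Sod1 and Txnrd1, whose log2 fold changes ran in both directions. The promoters of Gsr, Prdx6, Prdx6b, Gstt2, Gclc and Gsta4 were not analysed here. Of the 8 promoters that held the letters, 3 are printed because their genes are textbook NRF2 targets with log2 fold changes of unlike sign. Prdx1 (chr4:116685349-116685598, plus strand) and Gclm (chr3:122245307-122245556, plus strand) had positive log2 fold changes and Txnrd1 (chr10:82858956-82859205, plus strand, a start within the gene) a negative one. Capitals mark the letters found, on the reverse strand in each, and these begin 133, 134 and 92 bases before the start.
Prdx1: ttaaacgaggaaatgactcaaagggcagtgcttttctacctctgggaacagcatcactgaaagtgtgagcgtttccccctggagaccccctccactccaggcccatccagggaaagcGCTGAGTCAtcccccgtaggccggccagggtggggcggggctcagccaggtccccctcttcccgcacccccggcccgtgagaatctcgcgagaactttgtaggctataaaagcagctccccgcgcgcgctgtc
Gclm: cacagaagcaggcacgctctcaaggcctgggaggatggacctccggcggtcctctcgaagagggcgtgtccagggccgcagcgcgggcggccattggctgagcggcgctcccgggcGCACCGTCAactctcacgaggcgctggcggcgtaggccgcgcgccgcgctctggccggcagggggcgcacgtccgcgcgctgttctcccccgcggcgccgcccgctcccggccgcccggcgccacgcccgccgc
Txnrd1: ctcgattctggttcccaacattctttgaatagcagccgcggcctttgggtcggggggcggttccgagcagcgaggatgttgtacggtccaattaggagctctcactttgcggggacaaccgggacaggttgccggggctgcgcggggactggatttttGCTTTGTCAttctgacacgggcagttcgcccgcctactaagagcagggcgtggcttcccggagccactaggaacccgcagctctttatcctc
A match is a description of the letters and says nothing of binding in these cells.

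Of the enzymes that act first on superoxide and peroxide, the superoxide dismutases were higher in the NrasG12D libraries while catalase was level. Sod2, the mitochondrial manganese enzyme, was at 159, 157 and 139 normalized CPM in the NrasG12D libraries and at 113 and 115 in the Cux1-low libraries, without overlap (log2 fold change 0.41, SE 0.11, limma adjusted p = 0.0801). Sod1, the cytosolic copper-zinc enzyme, was at 36.8, 43.9 and 31.7 against 28.9 and 22.7 (log2 fold change 0.52, SE 0.19, limma adjusted p = 0.122). Cat was at 230.2, 242 and 241 in the NrasG12D libraries and at 241 and 242 in the Cux1-low libraries. Its log2 fold change was -0.02 with an SE of 0.09, and the groups overlapped. Of the 50-base words of the Sod2 transcripts, 21.0% also occur in other genes, so its reads could have been assigned in part elsewhere.

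Among glutathione peroxidases, Gpx1 dominated. Gpx1 (chromosome 9, 108338903 to 108340343), a selenoprotein that reduces hydrogen peroxide in the cytosol, was at 2827, 2755 and 2166 normalized CPM in the NrasG12D libraries and at 1626 and 1848 in the Cux1-low libraries. All 3 NrasG12D libraries were above both Cux1-low libraries, 1.49-fold on average (log2 fold change 0.56, SE 0.16, limma adjusted p = 0.0886). Gpx1 alone held 29.2% to 31.2% of the summed level of the 45 members in the NrasG12D libraries and 25.2% and 27.5% in the Cux1-low libraries. Per kb of exon it was the highest member, at 1792 ± 251 normalized CPM per kb in the NrasG12D libraries (SD, n = 3) and 1206 ± 109 in the Cux1-low libraries (SD, n = 2). Gpx3, the secreted form, was second from the bottom per kb of exon, at 3.44, 3.31 and 2.07 normalized CPM against 1.52 and 1.49 (log2 fold change 0.63, SE 0.26, limma adjusted p = 0.153). Gpx7, a form of the endoplasmic reticulum, ran the other way, at 4.67, 2.97 and 5.71 against 6.72 and 6.98 (log2 fold change -0.56, SE 0.27, limma adjusted p = 0.198). Gpx4, which reduces lipid peroxides in membranes, was at 58.3, 67.0 and 41.6 in the NrasG12D libraries and 46.8 and 45.2 in the Cux1-low libraries, and these overlapped. Pseudogenes and other copies share 34.7% of its 50-base words.

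**Figure D3:**
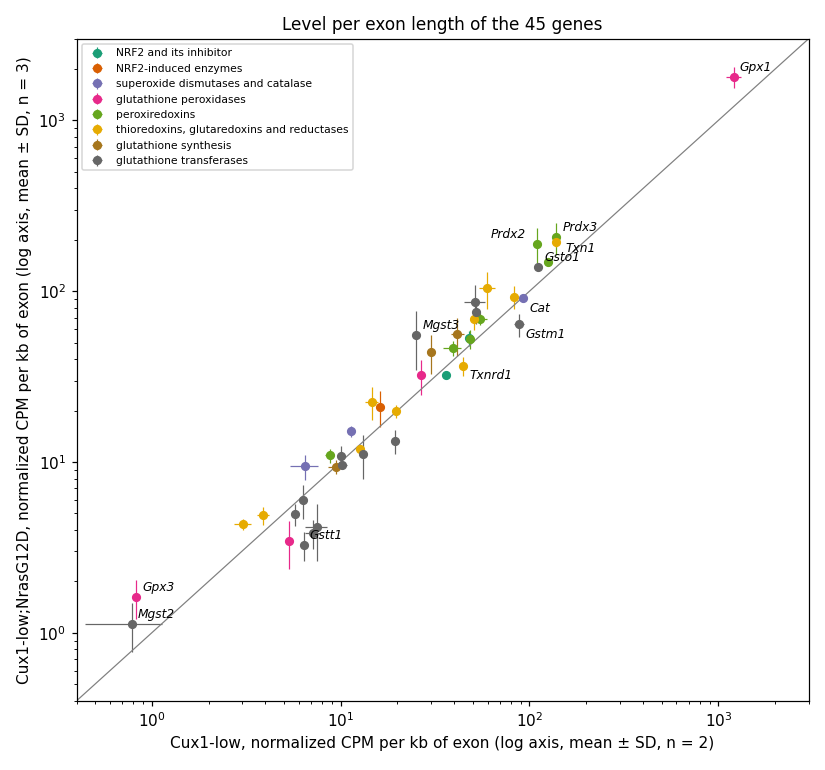
Level of each of the 45 genes per kb of exon (normalized CPM per kb, log axes), mean ± SD in Cux1-low;NrasG12D (n = 3) on the vertical axis and in Cux1-low (n = 2) on the horizontal axis, coloured by role, with the line of equal levels. Gpx1 stands at 1792 and 1206, far above the next genes, and Mgst2 and Gpx3 lie at the bottom.

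All 7 peroxiredoxins had positive log2 fold changes, from 0.11 to 0.76, and in 5 of the 7 the groups did not overlap. Of all genes, 49.7% had positive log2 fold changes and 26.5% were without overlap on the higher side. No peroxiredoxin passed the test over all genes. Prdx2 (chromosome 8, 84969587 to 84974834, plus strand), an abundant red cell protein, was at 599.9, 695 and 426 normalized CPM in the NrasG12D libraries and at 330.0 and 335 in the Cux1-low libraries. NrasG12D library 3 was the lowest of the 3 and still above both Cux1-low libraries, and the group difference was 0.76 in log2 (SE 0.20, limma adjusted p = 0.0806). Exons of Rnaseh2a and Junb on the opposite strand overlap its exons, and the labels do not say if strand was used in counting. Prdx3, the peroxiredoxin of mitochondria, was at 316, 365 and 237 in the NrasG12D libraries and at 201 and 209 in the Cux1-low libraries (log2 fold change 0.56, SE 0.18, limma adjusted p = 0.102). Prdx1, its cytosolic relative, was at 226, 193 and 209 against 176 and 156, and here NrasG12D library 3 was near NrasG12D libraries 1 and 2 (log2 fold change 0.33, SE 0.11, limma adjusted p = 0.117). Prdx6, which uses a single catalytic cysteine, was at 749.8, 719.8 and 672 in the NrasG12D libraries and 612 and 586 in the Cux1-low libraries (log2 fold change 0.25, SE 0.10, limma adjusted p = 0.156). Per kb of exon, Prdx3 was at 207 normalized CPM per kb in the NrasG12D libraries and 139 in the Cux1-low libraries, Prdx2 at 188 and 109, and Prdx6 at 149 and 125. Prdx6b averaged 31.6 ± 2.96 against 25.2 ± 1.36, without overlap. Prdx4, of the secretory pathway, averaged 97.7 ± 10.3 against 82.6 ± 8.97, and Prdx5 averaged 112 ± 14.0 against 103 ± 5.43, and both of these overlapped.

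Thioredoxins, glutaredoxins and their reductases split by enzyme. Txn1 (chromosome 4, 57943373 to 57956411, minus strand), the cytosolic thioredoxin, was at 213, 204 and 191 normalized CPM in the NrasG12D libraries and at 146 and 144 in the Cux1-low libraries. These 3 values lay close together and well above the other pair (log2 fold change 0.48, SE 0.10, limma adjusted p = 0.0616). Glrx5, a mitochondrial glutaredoxin of iron-sulphur cluster assembly that haem synthesis depends on, was at 407, 465 and 281 against 204 and 235 (log2 fold change 0.78, SE 0.21, limma adjusted p = 0.0835). Txnrd2, the mitochondrial thioredoxin reductase, was at 99.6, 120.2 and 77.8 in the NrasG12D libraries and at 60.5 and 68.0 in the Cux1-low libraries (log2 fold change 0.60, SE 0.19, limma adjusted p = 0.0975). Its cytosolic counterpart Txnrd1 was at 249, 234 and 298 against 328 and 306, below both Cux1-low libraries in every NrasG12D library (log2 fold change -0.29, SE 0.13, limma adjusted p = 0.174). The ratio of Txnrd1 to Txnrd2, not corrected for length, was 2.50, 1.95 and 3.83 in the NrasG12D libraries and 5.41 and 4.50 in the Cux1-low libraries, a pair chosen after its values were seen. Txn2, the thioredoxin of mitochondria, averaged 291 ± 41.6 against 213 ± 8.79, Glrx3 averaged 21.7 ± 1.51 against 15.3 ± 1.62, and Glrx2 averaged 42.7 ± 5.15 against 34.2 ± 2.61, all without overlap. Of the 50-base words of Glrx3, 15.1% also occur in other genes. Glutathione reductase (Gsr), at 256 ± 38.2 against 229 ± 9.13, and Txnrd3, at 56.3 ± 4.91 against 55.7 ± 1.06, overlapped. Glrx was at 65.8 ± 2.60 against 69.5 ± 1.30, a difference of 1.06-fold.

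The genes of glutathione synthesis differed among themselves. Gclm, the modifier subunit of the rate-limiting glutamate-cysteine ligase, was at 280.3, 349 and 203 normalized CPM in the NrasG12D libraries and at 185 and 193 in the Cux1-low libraries. NrasG12D library 3 was just above the Cux1-low values (log2 fold change 0.52, SE 0.21, limma adjusted p = 0.152). The catalytic subunit Gclc was at 210.3, 263 and 158 against 148 and 165, and there library 3 lay between the Cux1-low libraries (log2 fold change 0.40, SE 0.21, limma adjusted p = 0.228). Glutathione synthetase, Gss, was at 61.2, 51.5 and 53.7 in the NrasG12D libraries and at 59.6 and 52.1 in the Cux1-low libraries, with a log2 fold change of -0.01 (SE 0.13) whose sign changed with the scaling and with the libraries used. Exons of Acss2 and of antisense genes overlap those of Gss.

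The 15 glutathione transferases, which attach glutathione to reactive compounds, ran both ways: 4 were without overlap on the higher side, 6 on the lower side, and 5 overlapped. Of all genes, 26.5% were without overlap on the higher side and 27.0% on the lower side, so the 4 were near the share of all genes. Gstt3 (chromosome 10, 75774115 to 75781414, minus strand) was at 12.4, 14.1 and 17.9 normalized CPM in the NrasG12D libraries and at 25.7 and 29.3 in the Cux1-low libraries, 1.86-fold lower (log2 fold change -0.86, SE 0.19, limma adjusted p = 0.0692). Its neighbour Gstt1 was at 4.56, 6.11 and 4.31 against 9.46 and 10.01, 1.95-fold lower, and here NrasG12D library 3 was the lowest (log2 fold change -0.85, SE 0.21, limma adjusted p = 0.0765). The third listed gene of this 63.3 kb stretch, Gstt2, was at 39.8 ± 0.335 against 42.4 ± 2.37, a difference of 1.06-fold. Exons of Gm20441 on the same strand overlap 13.6% of the exon bases of Gstt3. Of the 50-base words of Gstt3, 12.5% also occur in other genes. On the higher side, Gstp1, the pi class enzyme, was at 126, 129 and 97.0 in the NrasG12D libraries and at 78.9 and 82.0 in the Cux1-low libraries (log2 fold change 0.53, SE 0.15, limma adjusted p = 0.0846), and 33.7% of its 50-base words also occur in other genes, mainly Gstp2. Gsto1, of the omega class, was the highest transferase per kb of exon (138 normalized CPM per kb in the NrasG12D libraries and 111 in the Cux1-low libraries), and was at 298, 276 and 266 normalized CPM against 229 and 221 (log2 fold change 0.31, SE 0.10, limma adjusted p = 0.0994).

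Mgst3, a microsomal transferase and peroxidase, had the largest positive log2 fold change of the 45 members, and its library values were read after that was seen. It was at 58.5, 84.9 and 39.3 normalized CPM in the NrasG12D libraries and at 28.4 and 26.9 in the Cux1-low libraries, 2.20-fold higher (log2 fold change 1.04, SE 0.29, limma adjusted p = 0.0846). The mu class genes Gstm1, Gstm4, Gstm5 and Gstm7, which lie within 149 kb on chromosome 3, were also singled out after their values were seen. Gstm5 was at 97.9, 142 and 92.7 in the NrasG12D libraries and at 60.3 and 72.0 in the Cux1-low libraries, and so was higher in all 3 (log2 fold change 0.72, SE 0.20). Exons of 4933431E20Rik on the opposite strand overlap 13.9% of its exon bases. Gstm1 was at 101, 77.4 and 104 against 125 and 136, lower in all 3 (log2 fold change -0.48, SE 0.15), with 18.9% of its 50-base words shared with Gstm3, Gstm2-ps1 and others. Gstm4 was at 26.3, 19.1 and 22.2 against 33.7 and 32.8, and Gstm7 was at 6.001, 4.62 and 9.30 against 13.1 and 10.9, so that both were lower in every NrasG12D library. NrasG12D library 2 had the highest Gstm5 and the lowest Gstm1, Gstm4 and Gstm7. The ratio of Gstm5 to Gstm1, not corrected for length, was 0.966, 1.84 and 0.895 in the NrasG12D libraries and 0.484 and 0.530 in the Cux1-low libraries. The limma adjusted p of these 4 genes ran from 0.0847 to 0.118. Of the remaining transferases, Mgst1, Mgst2, Gstk1, Gstz1 and Gsta4 overlapped, with log2 fold changes from -0.25 to 0.41.

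**Figure D4:**
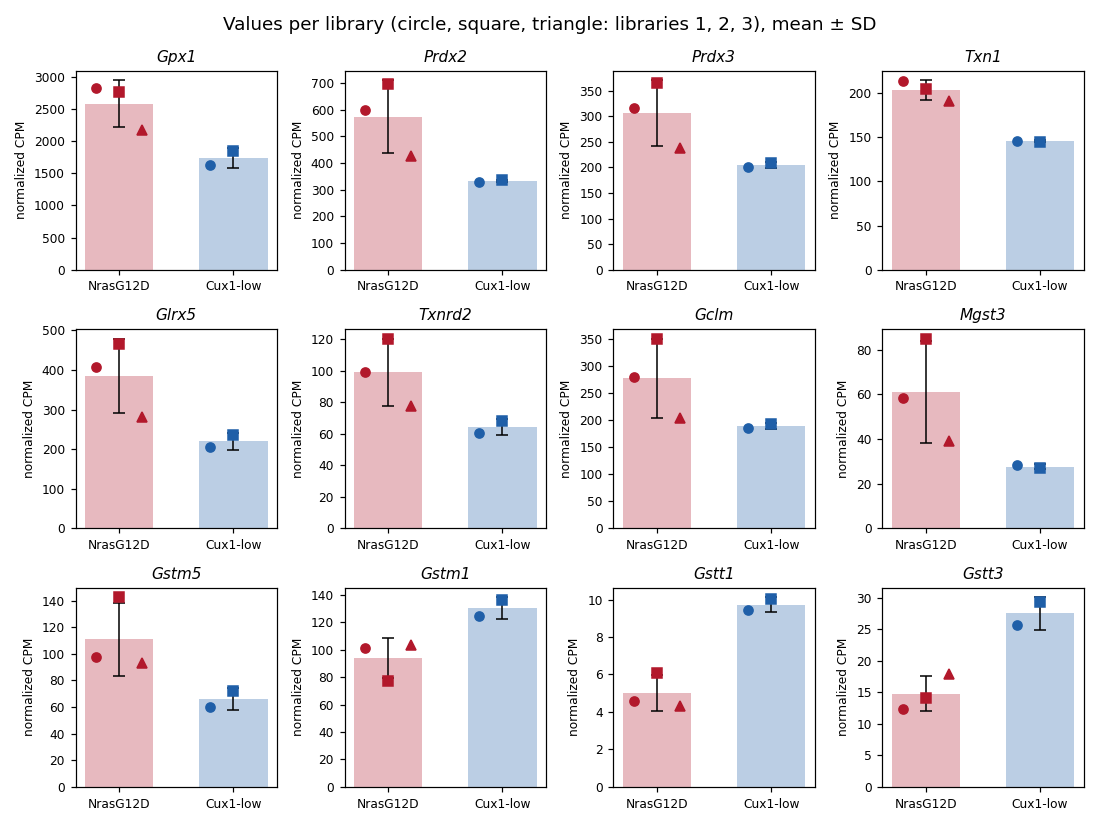
Normalized CPM of 12 antioxidant genes in each library, Cux1-low;NrasG12D (labelled NrasG12D, n = 3) left and Cux1-low (n = 2) right, with bars at the mean and whiskers of 1 SD. Txn1 shows the tightest groups, Mgst3 spreads from 39.3 to 84.9 across the NrasG12D libraries, and Gstm1, Gstt1 and Gstt3 are the genes with lower NrasG12D values.

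Members with mitochondrial products were picked out after their values were seen, so their counts support nothing further. Sod2, Prdx3, Txn2, Txnrd2, Glrx2 and Glrx5 were without overlap on the higher side, as were 26.5% of all genes, with log2 fold changes from 0.31 to 0.78. Prdx5, Gpx4 and Gstk1, whose products are found in mitochondria and elsewhere, overlapped, with log2 fold changes of 0.11, 0.24 and -0.19.

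Summed over the 45 members, the level was 9065, 9247 and 7419 normalized CPM in the NrasG12D libraries and 6445 and 6710 in the Cux1-low libraries. Without Gpx1 the sums were 6238, 6492 and 5252 against 4819 and 4862, and NrasG12D library 3 was the lowest of the 3 both times. Erythroid markers had the same order of groups, and other marker lists did so in part or not at all. Of 16 erythroid markers, 11 were listed, all with positive log2 fold changes (median 0.93), and their summed level was 8644, 12061 and 6105 normalized CPM in the NrasG12D libraries and 4932 and 5392 in the Cux1-low libraries. The globin genes and Ahsp were not analysed here. NrasG12D library 2 was the highest for the erythroid sum. Of the 21 members without overlap on the higher side, 10 had their highest value in library 2 and 11 in library 1. The summed level of 9 granulocyte and monocyte markers was 20001, 13369 and 8489 against 7836 and 10993, where library 3 lay between the Cux1-low libraries. Mpo alone was at 16346, 10968 and 6917 against 6253 and 8799, and 8 of the 9 genes had positive log2 fold changes (median 0.44). For 8 listed B cell precursor markers, all with positive log2 fold changes, the summed level was 269, 551 and 60.5 against 58.1 and 79.4. For 9 megakaryocyte markers, all with negative ones, it was 599, 523 and 919 against 946 and 924. Mast cell, eosinophil and basophil markers (8 listed) summed to 899, 683 and 641 against 913 and 678, dendritic cell markers (7 listed) to 999.9, 739.5 and 588 against 1382 and 1116, and the 2 listed T and NK cell markers to 318, 205 and 349 against 254 and 282. Sums hide single genes. In the mast cell list Epx and Prg2 were called lower (limma adjusted p = 0.0430 for both), with 5 log2 fold changes negative and 3 positive. In the dendritic cell list H2-Aa was called lower (limma adjusted p = 0.0478), with 5 negative and 2 positive, among them Irf8 (1.14, overlapping). Of all genes, 0.872% were called lower. The part of these cell types in the levels of the antioxidant genes was not tested.

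**Figure D5:**
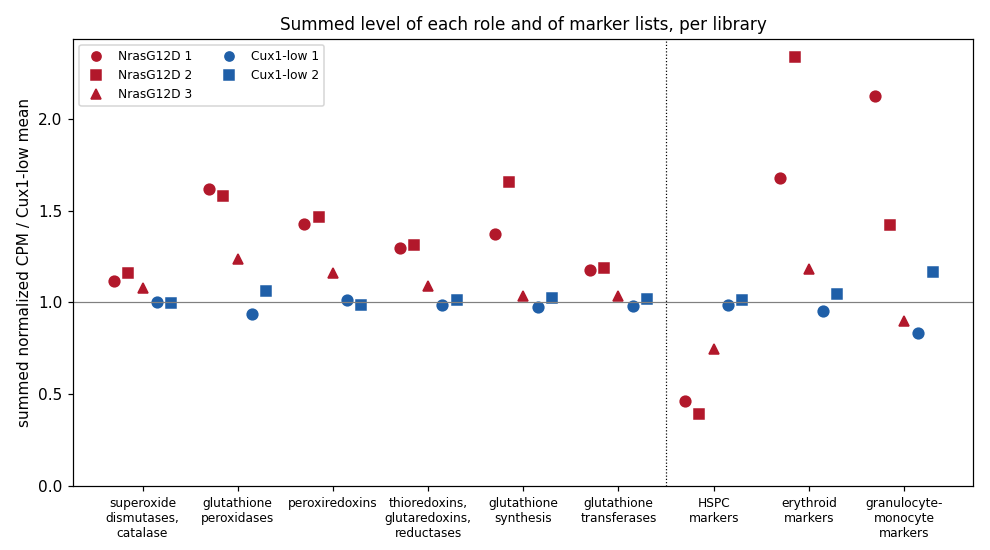
Summed normalized CPM of the genes of each role, and of 3 marker lists right of the dotted line, in each library, divided by the mean of the 2 Cux1-low libraries. The NrasG12D libraries (Cux1-low;NrasG12D) are red and the Cux1-low libraries blue. NrasG12D libraries 1 and 2 lie above library 3 in each antioxidant role shown and in the erythroid sum, and below it in the HSPC sum.

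Other genes around the system were read from 6 lists, with the same all-gene threshold and the same background of 0.255% higher and 0.872% lower. Counts at an unadjusted p under 0.05 are to be read against 14.8% of all genes higher and 16.5% lower. Of 16 genes in a list drawn up around NADPH supply, Mthfd2, of mitochondrial folate metabolism, was called higher and 15 did not pass. The median log2 fold change of the list was 0.36, with 7 higher and 2 lower at an unadjusted p under 0.05. The list follows whole pathways and not only steps that make NADPH, so its median does not measure NADPH supply. Mthfd2 was at 60.4, 60.9 and 56.5 normalized CPM in the NrasG12D libraries and at 36.8 and 35.5 in the Cux1-low libraries (log2 fold change 0.70, SE 0.11, limma adjusted p = 0.0498). It was not called in 9 of 14 alternatives: with either Cux1-low library or NrasG12D library 1 or 2 left out (limma adjusted p = 0.0935 to 0.400), and, just past the threshold, with pseudocounts of 0.1 and 0.5, a mean of at least 5, limma without a trend and robust limma (0.0508 to 0.0552). In the same list, H6pd, which makes NADPH in the endoplasmic reticulum, was at 50.1, 42.1 and 55.6 against 83.4 and 101, and Rpia, of the pentose phosphate pathway, at 10.6, 10.8 and 8.51 against 4.31 and 4.57.

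Of 26 genes in a list drawn up for NRF2 control and targets outside the rule, 0 passed (median log2 fold change -0.11, with 4 higher and 7 lower at an unadjusted p under 0.05). The list also holds genes not known mainly as NRF2 targets, such as Txnip and Trp53inp1, so its median does not measure NRF2 activity. Txnip, whose product binds and inhibits thioredoxin, was at 283, 301 and 513 normalized CPM in the NrasG12D libraries and at 987 and 791 in the Cux1-low libraries, without overlap (log2 fold change -1.32, SE 0.26, limma adjusted p = 0.0581). This is the opposite direction to Txn1. Trp53inp1 was at 16.4, 21.5 and 23.2 against 39.8 and 35.0, and Ephx1, an epoxide hydrolase, at 2.15, 2.05 and 3.28 against 5.78 and 6.16. Of 15 glutathione turnover genes, 0 passed (median 0.09, with 5 higher and 1 lower at an unadjusted p under 0.05). Ggt5, which cleaves glutathione conjugates outside the cell, was at 9.18, 7.25 and 12.2 against 20.1 and 25.4, and Slc25a39, a mitochondrial glutathione carrier, at 304, 264 and 261 against 217 and 217.

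Of 25 other thioredoxin-fold and methionine sulphoxide reductase genes, 0 passed (median 0.08, with 4 higher and 2 lower at an unadjusted p under 0.05). Nme3 was at 32.6, 48.0 and 31.4 normalized CPM in the NrasG12D libraries and 21.0 and 19.3 in the Cux1-low libraries. Tmx3 ran the other way, at 50.6, 53.0 and 59.8 against 89.6 and 69.1, and Txnl1 was at 387, 397 and 297 against 260.4 and 255. Of 16 genes of selenoproteins and their synthesis, 0 passed (median 0.07, with 3 higher and 2 lower at an unadjusted p under 0.05). Sephs2, which makes the selenium donor, was at 335, 313 and 248 against 214 and 231, and the plasma selenoprotein gene Sepp1 at 128, 116 and 211 against 241 and 223. Of 8 genes of the superoxide-generating oxidase, 0 passed (median -0.04, with 1 higher and 0 lower at an unadjusted p under 0.05), and its subunit gene Ncf1 was at 163, 142 and 95.6 against 94.4 and 87.1. With NrasG12D library 3 left out, when 18.0% of all genes rose and 19.4% fell, 10 of 16 genes of the NADPH list rose and 2 fell, 4 genes of the NRF2 list rose and 9 fell, 5 glutathione turnover genes rose and 2 fell, 4 thioredoxin-fold genes rose and 3 fell, 2 selenoprotein genes rose and 1 fell, and 1 oxidase gene rose. Several of these counts lie near or under the shares of all genes.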

How the data were processed

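PolyA RNA-seq of 3 Cux1-low;NrasG12D and 2 Cux1-low libraries was used, grouped by the labels. TopHat, HTSeq and edgeR are named, with neither versions nor roles, in the submitters' processing notes, as are the builds hg19 and mm10 (the mouse build). The deposited signal values, headed CPM per the file headers, sum to 971746 to 1026780 per library, so the authors had applied a composition factor. The authors' deposited table also holds their log2 fold change, likelihood ratio score, p-value and adjusted p-value. Every value was a whole multiple of a step per library (tolerance 0.01), which gave the reads per library, but the check of units did not accept recovered reads, so no count test was run.

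Group differences were tested with limma 3.58.1 (R 4.3.3, trended variance, two-sided) on log2(value + 1) over all genes, which understates changes of low genes. Fold changes are NrasG12D over Cux1-low. A filter asking for 1 or more in 2 or more libraries removed 0 genes. Values after ± are SDs. The fit was tested on simulated data with a single dispersion for all genes and no library set apart. These settings differ from the data, so the simulation does not show how the fit behaves with NrasG12D library 3. Members and lists were chosen with earlier results of these data known. Library values are given for Nfe2l2, Keap1 and, in each role, the member with the highest mean and the 3 with the smallest p. Those of Gpx4, Txnrd1, Mgst3, Gstm1, Gstm4, Gstm5 and Gstm7 were added after their values were seen. Outside the members, up to 3 genes of each list with the smallest p are given. Exon lengths, overlaps and 50-base words came from GENCODE M21. Python 3.11.15 and pandas 2.3.3 were used. Alternatives were another pseudocount, filter, scaling or variance model, a replicate block, and each library left out.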

Additional observations from a re-analysis of the deposited data

How the results depend on the processing

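Under the 14 alternatives the count of members called stayed at 0 in each direction in 12, and the median log2 fold change of the members stayed positive (0.18 to 0.33). The exceptions were the fits without NrasG12D library 3 and with the replicate number as a block. Leaving out each library in turn gave 0 to 21 members higher and 0 to 7 lower, the high values without NrasG12D library 3. The replicate block, in which library 3 stands alone and adds nothing to the comparison, gave 19 higher and 7 lower, and 1892 and 2271 over all genes. Deviations from the group means had correlations of -0.19 and -0.0035 between libraries of equal number, for numbers 1 and 2. The 2 Cux1-low libraries deviate from their mean as mirror images, so these values cannot show if equal numbers share an animal or a day. The log2 fold change of Gss turned positive with library medians set equal (0.0018), with the block (0.011), and without Cux1-low library 1 (0.084), NrasG12D library 2 (0.040) or NrasG12D library 3 (0.011), in a range of -0.105 to 0.084 over libraries left out, and the cause was not tested. Counts over all genes were 29 higher and 99 lower, and 3 and 0 without either Cux1-low library or NrasG12D library 1, 10 and 12 without NrasG12D library 2, and 2043 and 2200 without NrasG12D library 3. Counting error was widest for Gpx3 and Mgst2, with 31 and 41 reads in their lowest library.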
